A study of Homo sapiens with 12 samples.

Results

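The transcripts described here belong to 38 genes of DNA repair, namely those of homologous recombination, the Fanconi anemia pathway, mismatch repair and the checkpoint and end-joining steps that work beside them. They were taken by gene name from a list chosen with earlier results of these data known, and are 38 of the 58735 rows of the deposited count table. Each name occurred once, and all 38 genes passed the filter on low counts that left 16646 genes for testing.

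RNA was measured by polyA RNA-seq in 4 arms of 3 libraries each from C4.2B, a human line of castration-resistant prostate cancer that descends from LNCaP. Cells received DMSO vehicle (DMSO), 0.25 μM ipatasertib, which inhibits the AKT kinases (AKTi), 1 μM tazemetostat, which inhibits the methyltransferase EZH2 (EZH2i), or both drugs at these doses (combination). EZH2i and combination cells had received tazemetostat for 6 days beforehand, and RNA of all arms was collected after 24 hours of treatment in medium with 10% charcoal-stripped FBS. All arms come from a single cell line seeded in replicate plates, so p-values measure the spread between these plates only. Totals per library ranged from 14133755 to 22276417 counts. The luminal prostate markers KLK3, KLK2, TMPRSS2, FOLH1, HOXB13, KRT8 and KRT18 were expressed in every arm, the T cell marker CD3E had 0 counts in all 12 libraries, and PECAM1, PTPRC and COL1A2 were at or near 0. COL1A1, a fibroblast collagen, reached mean levels of 5.05 to 16.8 CPM (counts scaled to the effective library size) across the arms, and rose by 1.59 on the log2 scale with EZH2i (adjusted p = 1.65e-10) and 1.10 in the combination (4.59e-07). Of the luminal markers named, 6 rose and HOXB13 fell (-0.53) in the combination, TMPRSS2 the most (3.62). The part of these changes in those of the members was not tested.

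Homologous recombination repairs a broken chromosome by copying the sister chromatid: nucleases trim the ends, BRCA2 and its partners load the recombinase, and helicases take the joints apart again. The Fanconi anemia proteins unhook crosslinked strands and pass the resulting break to the same machinery, while mismatch repair corrects replication errors. Because a sister chromatid exists only after replication, many of these genes are transcribed mostly in dividing cells, often under E2F transcription factors.

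The promoters of the 3 members with the lowest and the 2 members with the highest log2 fold change in the combination are shown, because they let the regulatory letters be read beside the largest changes in either direction. Each is the 250 bases before the annotated start (RefSeq, GRCh38.p14), 5′ to 3′ on the strand of the gene, with searched letters in capitals. RAD54L lies at chr1:46247438-46247687 (plus strand), EXO1 at chr1:241847954-241848203 (plus), XRCC2 at chr7:152676142-152676391 (minus), PMS2 at chr7:6009107-6009356 (minus) and ATM at chr11:108222817-108223066 (plus). The deposited gene coordinates place some starts elsewhere. By them ATM begins at 108222484, so its stretch lies inside the gene. EXO1 begins at 241847967, so most of its stretch does too.
RAD54L: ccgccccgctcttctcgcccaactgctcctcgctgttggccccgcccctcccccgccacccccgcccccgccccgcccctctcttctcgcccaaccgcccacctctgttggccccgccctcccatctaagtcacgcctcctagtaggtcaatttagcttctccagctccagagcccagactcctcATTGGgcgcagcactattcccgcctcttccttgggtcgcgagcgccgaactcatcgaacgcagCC
EXO1: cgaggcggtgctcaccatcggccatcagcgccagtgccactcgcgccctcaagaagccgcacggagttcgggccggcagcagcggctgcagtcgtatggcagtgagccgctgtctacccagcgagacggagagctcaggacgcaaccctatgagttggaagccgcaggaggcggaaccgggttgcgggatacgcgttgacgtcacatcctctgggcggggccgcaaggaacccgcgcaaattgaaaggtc
XRCC2: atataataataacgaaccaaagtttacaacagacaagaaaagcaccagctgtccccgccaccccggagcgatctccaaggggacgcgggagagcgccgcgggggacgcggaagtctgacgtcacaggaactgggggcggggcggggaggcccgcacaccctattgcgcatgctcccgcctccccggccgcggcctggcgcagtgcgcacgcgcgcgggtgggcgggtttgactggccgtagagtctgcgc
PMS2: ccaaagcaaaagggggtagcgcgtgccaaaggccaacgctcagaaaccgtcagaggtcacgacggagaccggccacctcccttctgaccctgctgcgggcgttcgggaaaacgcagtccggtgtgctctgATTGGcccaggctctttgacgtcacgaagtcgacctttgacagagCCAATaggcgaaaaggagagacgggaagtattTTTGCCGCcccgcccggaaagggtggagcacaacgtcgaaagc
ATM: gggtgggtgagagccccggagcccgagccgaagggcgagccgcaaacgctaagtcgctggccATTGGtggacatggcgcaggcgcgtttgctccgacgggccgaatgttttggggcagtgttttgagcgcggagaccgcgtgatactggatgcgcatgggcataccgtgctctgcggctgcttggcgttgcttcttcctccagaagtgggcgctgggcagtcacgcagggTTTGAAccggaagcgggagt
The letters searched on both strands were the E2F octamers TTTCCCGC, TTTCGCGC, TTTGCCGC and TTTGGCGC, the cell cycle homology region TTTGAA or TTCGAA, and the CCAAT box CCAAT. In RAD54L the capitals are a CCAAT box on the other strand and the beginning of a further one that runs across the start. EXO1 and XRCC2 hold none of the letters in these 250 bases, but each has an E2F octamer just past the start, TTTCGCGC beginning at base 5 in EXO1 and TTTCCCGC beginning at base 22 on the other strand in XRCC2. PMS2 holds CCAAT boxes in both orientations and the octamer TTTGCCGC, and ATM a CCAAT box on the other strand and TTTGAA.

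Counted over 250 bases before to 50 after the start, an E2F octamer was present in 7 of the 35 members with a promoter entry (20.0%), against 3.31% of all 35116 promoters in the table. The 7 were XRCC2, FANCA, FANCC, FANCD2, EXO1, MSH6 and PMS2. Of the members that fell in the combination 6 of 30 had an octamer, and of those that rose 1 of 4, namely PMS2. The median log2 fold change between the combination and DMSO was -3.02 in the 7 members with an octamer and -1.53 in the 28 without. The ranges overlapped, at -4.43 to 1.51 with an octamer and -4.76 to 0.65 without, and the difference was not tested. RAD54L, which fell most, had no octamer in the window. The CCAAT box was found in 42.9% of the members and 34.6% of all promoters, and the cell cycle homology region in 11.4% and 16.4%. These are matches of letters only.

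Most of the 38 transcripts were lower in every treated arm, and lowest with both agents. In DMSO, levels per gene length, in TPM (counts divided by gene length and scaled to the library), ran from 235 for PARP1, followed by BARD1 at 119 and RAD51AP1 at 78.8, down to 1.96 for RAD50. In the combination PMS2 had the highest level, with 138 TPM, ahead of PARP1 with 106, and RAD54L stood at 1.23 TPM. The comparisons of arms below use CPM after TMM scaling, edgeR's quasi-likelihood test and Benjamini-Hochberg adjusted p-values over all 16646 genes, called at 0.05. They measure RNA relative to all other RNA of a bulk sample, so fewer cells of a kind and less RNA per cell cannot be told apart.

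**Figure D1:**
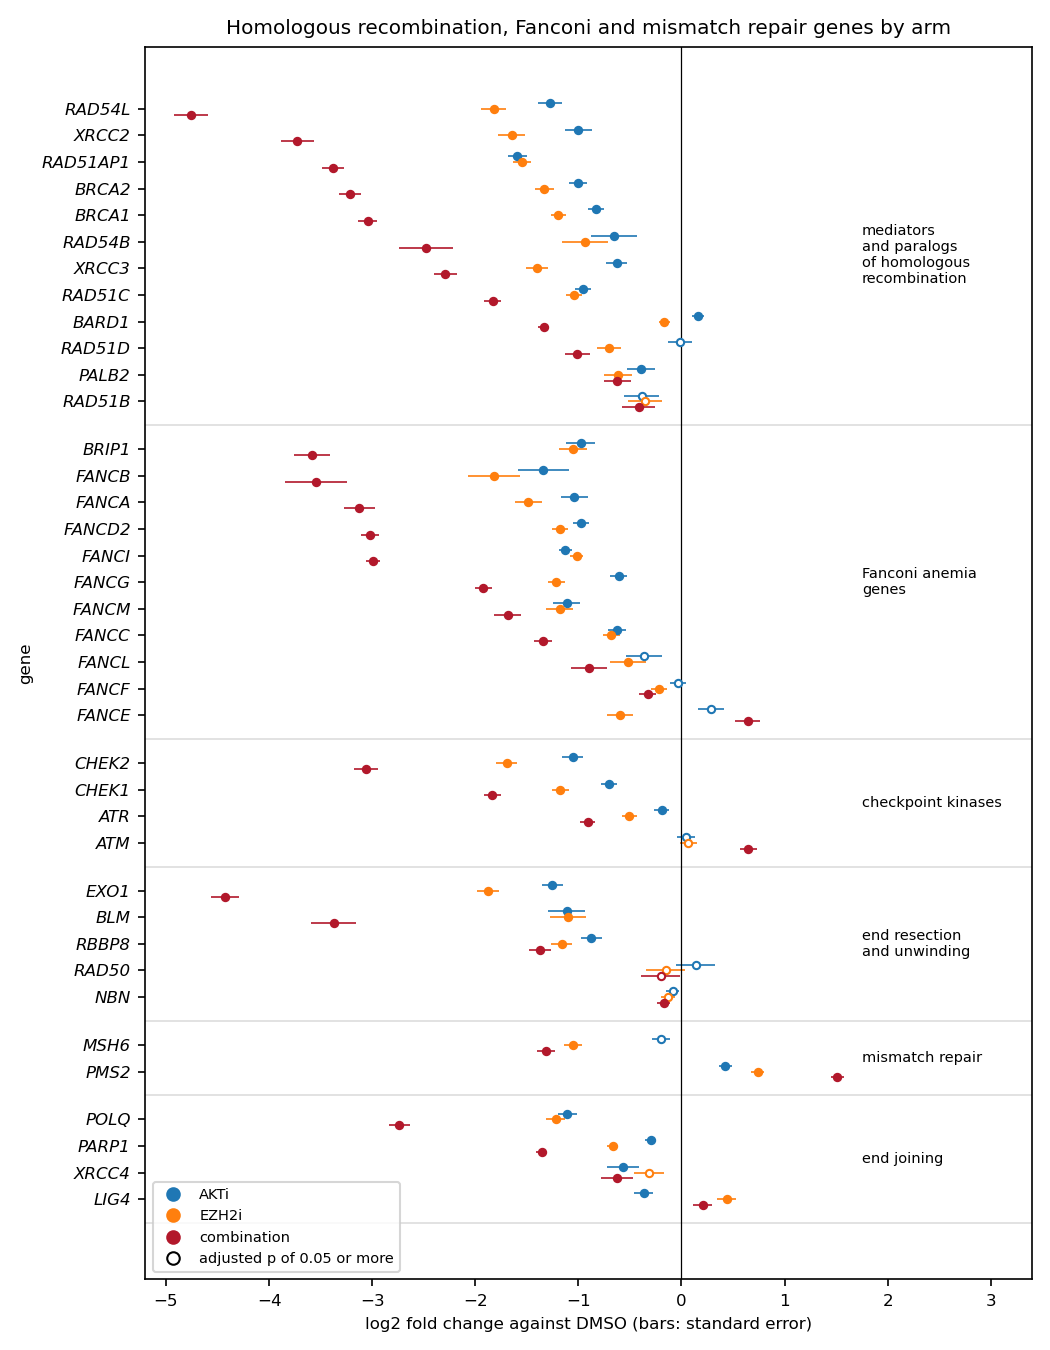
Log2 fold change against DMSO (x axis, with standard errors) of the 38 genes (y axis) in AKTi, EZH2i and the combination, grouped by role. Open points did not pass the test. The combination points run from -4.76 for RAD54L to 1.51 for PMS2, and 33 of 38 passed the test below 0.

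With AKTi alone 27 of the 38 members fell and 2 rose, against 21.9% of all tested genes that fell and 20.6% that rose, and the members' median log2 fold change was -0.64 (0.01 over all genes tested). With EZH2i alone 31 fell and 2 rose, against 31.5% and 32.6% of all genes, with a median of -1.05 (0.03 over all genes). With both agents 33 fell and 4 rose, against 35.2% and 38% of all genes, with a median of -1.76 (0.06 over all genes). All 3 combination libraries lay below all 3 DMSO libraries for 32 members and above them for 4, against 36% and 38.5% of all genes. The 3 comparisons share the DMSO libraries. Scaling by library totals alone moved the median of all genes in the combination from 0.06 to 0.26 and that of the members to -1.56, with 30 members lower and 4 higher. Both agents given singly lowered 25 members, and LIG4 and BARD1 passed the test in opposite directions with the single agents. The shares of all genes with these joint calls were not counted, so neither number can be set against them.

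Compared with AKTi, the combination was lower for 29 members and higher for 4, where 32.1% of all genes were lower and 32.1% higher, and the members' median was -1.12. Compared with EZH2i it was lower for 27 and higher for 3, where 25.7% of all genes were lower and 21.1% higher, and the median was -0.70. For 26 members the combination was below both single agents, for FANCE, ATM and PMS2 it was above both, and LIG4 lay between them. How many of all genes lay below or above both was not counted. The LIG4 call against EZH2i (-0.23, adjusted p = 0.0284) was lost with scaling by library totals (0.0907) or upper quartile (0.115), with a filter of at least 10 counts in every library (0.0558), and without EZH2i library B or C or any combination library (0.0517 to 0.0768). FANCF, FANCL and RBBP8 were below AKTi but did not pass the test against EZH2i. With scaling by library totals, the FANCF and FANCL calls against AKTi were lost (adjusted p = 0.0746 and 0.0551). The RAD51D and MSH6 calls against EZH2i were lost with that scaling (0.0868 and 0.0638) and by upper quartile (0.101 and 0.0807). PALB2, RAD51B, NBN, RAD50 and XRCC4 passed neither test.

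All 12 mediators and paralogs of homologous recombination fell in the combination, 9 fell with AKTi and 11 with EZH2i. Beside these and the role groups below, 35.2% of all genes fell in the combination, 21.9% with AKTi and 31.5% with EZH2i. In the combination 38% of all genes rose. RAD54L, the motor protein that drives strand invasion and clears the recombinase from DNA, had the lowest fold change of all members (chr1:46247688-46278473, hg38, plus strand). Its CPM was 30.0, 27.8 and 27.7 in the DMSO libraries, 11.5, 11.1 and 12.7 with AKTi, 8.30, 8.47 and 7.44 with EZH2i, and 0.963, 1.27 and 0.906 in the combination. The arms did not overlap. On the log2 scale it changed by -1.27 ± 0.12 (SE, n = 3 against 3) with AKTi (adjusted p = 3.1e-11), -1.82 ± 0.12 with EZH2i (7.45e-16) and -4.76 ± 0.16 with both (8.22e-25). By the annotation, 19.9% of its exonic bases overlap LRRC41 on the other strand, and the strand setting of the counting is not given in the sources used here.

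XRCC2, a paralog of the recombinase, followed with a log2 fold change of -3.72 in the combination, then RAD51AP1, an accessory factor of the recombinase, with -3.38. BRCA2, which loads the recombinase, changed by -3.21 and BRCA1, its upstream partner and a ubiquitin ligase, by -3.05. BRCA1 went from 79.7 ± 5.48 CPM (SD, n = 3) in DMSO to 45.1 ± 2.56 with AKTi, 34.9 ± 0.95 with EZH2i and 9.70 with both. RAD54B, a relative of RAD54L, changed by -2.48 and XRCC3 by -2.29. RAD54B shares 66% of its exonic bases with FSBP on the same strand and XRCC3 76.7% with KLC1 on the other, so reads of these pairs may not be separable. The paralogs RAD51C (-1.83) and RAD51D (-1.01) fell less, and PALB2, the bridge between BRCA1 and BRCA2, was lower by a similar amount in EZH2i (-0.62) and the combination (-0.62), with a difference between these arms of -0.01 ± 0.14.

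BARD1, the ring-finger partner of BRCA1, behaved differently from BRCA1 (chr2:214725646-214809711, minus strand). Its CPM was 210, 218 and 231 in DMSO, 250, 244 and 243 with AKTi, 185, 203 and 200 with EZH2i, and 86.7, 88.6 and 85.7 in the combination. The AKTi libraries all lay above and the EZH2i libraries all below DMSO, by little, and the combination libraries lay far below all others. Against DMSO the log2 change was 0.16 ± 0.05 with AKTi (adjusted p = 0.0148), -0.17 ± 0.05 with EZH2i (0.00716) and -1.34 ± 0.06 in the combination (4.39e-22). The AKTi call was lost when any of 5 of the 6 AKTi and DMSO libraries was left out (all but DMSO C), with adjusted p-values up to 0.115, and the EZH2i call was lost when libraries were scaled by their totals alone (-0.02, adjusted p = 0.742).

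RAD51B, the remaining paralog, had the smallest change of the group (chr14:67819779-68730218, plus strand). Its CPM was 9.63, 9.44 and 7.62 in DMSO, 7.67, 7.01 and 5.63 with AKTi, 6.43, 6.31 and 7.86 with EZH2i, and 7.86, 5.48 and 6.46 in the combination. The arms overlapped. The log2 fold change in the combination was -0.42 ± 0.16 (adjusted p = 0.0229), but -0.22 (0.225) when scaled by library totals alone and -0.30 (0.129) without combination library B. The call was also lost without DMSO library A (0.0803) or combination library C (0.0532).

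Of the 11 Fanconi anemia genes, 10 fell and FANCE rose in the combination, all 11 fell with EZH2i and 8 fell with AKTi. BRIP1, a helicase that binds BRCA1, was lowest (chr17:61681266-61863521, minus strand). Its CPM was 19.3, 22.1 and 19.6 in DMSO, 11.1, 8.97 and 10.8 with AKTi, 8.84, 11.7 and 8.82 with EZH2i, and 1.32, 1.56 and 2.24 in the combination. The single agents overlapped each other, and the combination lay below both. The log2 fold change was -0.98 ± 0.14 with AKTi (adjusted p = 4.43e-07), -1.05 ± 0.14 with EZH2i (2.56e-08) and -3.58 ± 0.18 with both (5.42e-20).

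Members of the core complex, which attaches ubiquitin to FANCD2 and FANCI, fell by unequal amounts in the combination. FANCB changed by -3.54 on the log2 scale and FANCA by -3.12. By the annotation, 19.6% of the exonic bases of FANCA overlap ZNF276 on the other strand. FANCG (-1.92), FANCM (-1.69), which moves along branched DNA and anchors the complex, and FANCC (-1.34) changed less. FANCL, the ubiquitin ligase subunit, changed by -0.90 and FANCF, an adaptor subunit, by -0.33. The FANCF call was lost with scaling by library totals, at -0.13 (adjusted p = 0.119), and so was its EZH2i call, from -0.22 to -0.07 (0.427), which was also lost with upper-quartile scaling (0.276) and without EZH2i library B (0.0583). The EZH2i call of FANCL, at -0.52, was lost with scaling by library totals, at -0.37 (0.0558). The ubiquitinated pair itself, FANCD2 (-3.02) and FANCI (-2.99), changed by almost equal amounts, and by -0.98 and -1.13 with AKTi and -1.18 and -1.02 with EZH2i.

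FANCE, the core subunit that contacts FANCD2, took the opposite course (chr6:35452356-35467103, plus strand). Its CPM was 12.5, 12.02 and 11.7 in DMSO, 13.8, 14.6 and 15.6 with AKTi, 9.24, 6.96 and 7.76 with EZH2i, and 21.1, 18.2 and 17.0 in the combination. EZH2i libraries were all below and combination libraries all above the other arms. On the log2 scale it changed by 0.29 ± 0.13 with AKTi (adjusted p = 0.0627), -0.60 ± 0.13 with EZH2i (0.000142) and 0.64 ± 0.12 in the combination (1.24e-05), and the combination exceeded EZH2i by 1.24 ± 0.13 (1.59e-10). It exceeded AKTi by 0.36 ± 0.12 (0.00964), a call that was lost without AKTi library A (adjusted p = 0.105) or combination library A (0.0989).

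**Figure D2:**
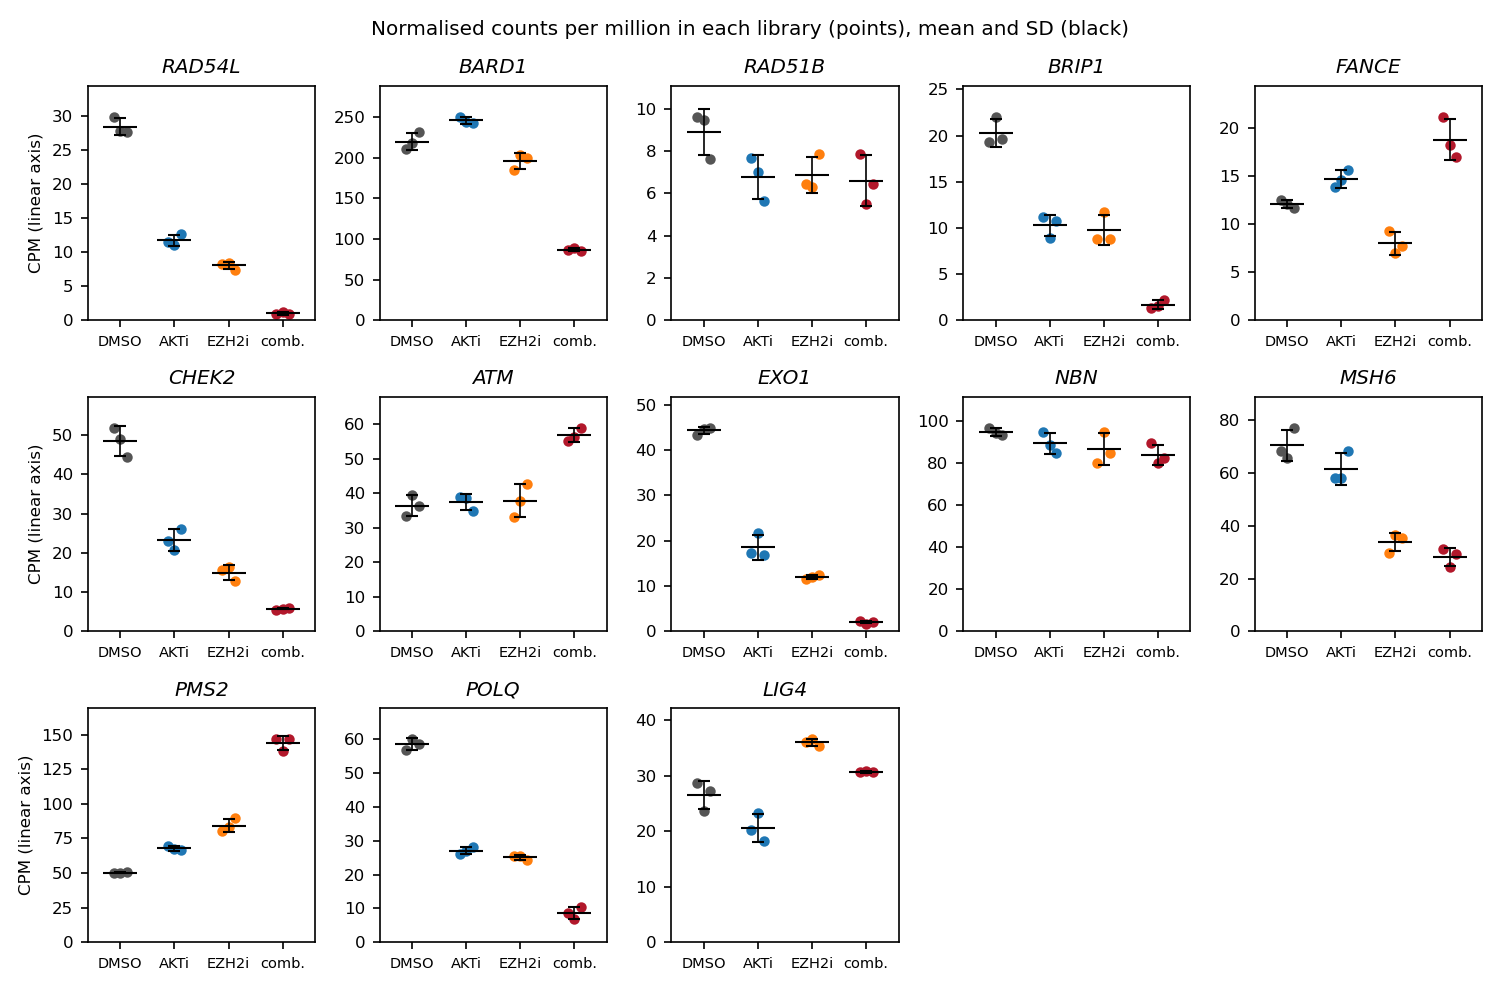
CPM (y axis, linear from 0) in each of the 12 libraries (points) by arm (x axis) for 13 members, with the mean and SD in black. RAD54L, BRIP1, CHEK2, EXO1 and POLQ are lowest in the combination, PMS2, FANCE and ATM are highest there, and BARD1 is near its DMSO level with each single agent.

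Among the checkpoint kinases, which stop the cell cycle when DNA is damaged or replication stalls, 3 fell in the combination and ATM rose. CHEK2, the kinase activated by ATM, was lowest (chr22:28687743-28742422, minus strand). Its CPM was 51.9, 49.0 and 44.5 in DMSO, 23.0, 20.7 and 26.1 with AKTi, 15.6, 16.4 and 13.0 with EZH2i, and 5.58, 5.82 and 5.98 in the combination. The 4 arms did not overlap. Against DMSO the log2 change was -1.06 ± 0.10 with AKTi (adjusted p = 5.27e-11), -1.70 ± 0.10 with EZH2i (6.34e-17) and -3.06 ± 0.12 with both (1.67e-23).

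ATM, which senses double-strand breaks, was level across the single agents (chr11:108222484-108369102, plus strand). Its CPM was 33.3, 39.4 and 36.3 in DMSO, 38.9, 38.7 and 34.9 with AKTi, 33.1, 37.7 and 42.7 with EZH2i, and 55.2, 56.3 and 59.0 in the combination. All combination libraries were above all others, which overlapped. The log2 fold change was 0.05 ± 0.09 with AKTi (adjusted p = 0.702), 0.07 ± 0.08 with EZH2i (0.502) and 0.65 ± 0.08 with both (9.8e-09). Of the replication stress pair, ATR changed by -0.19 with AKTi, -0.51 with EZH2i and -0.91 with both on the log2 scale, and its effector kinase CHEK1 by -0.70, -1.17 and -1.83. By the annotation, 13.4% of the exonic bases of CHEK1 overlap an unnamed gene on the other strand. The AKTi call of ATR was lost without AKTi library A or B or DMSO library A or C (adjusted p of 0.0538 to 0.126).

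Of the 5 genes of end resection and unwinding, 4 passed the test below 0 in the combination and RAD50 did not pass it. The 4 include NBN, whose value changed sign with other scalings. EXO1, the exonuclease that carries resection over long distances and also serves mismatch repair, was lowest (chr1:241847967-241895148, plus strand). Its CPM was 43.4, 44.7 and 45.0 in DMSO, 17.2, 21.8 and 16.8 with AKTi, 11.5, 12.04 and 12.5 with EZH2i, and 2.28, 1.73 and 2.11 in the combination. The arms did not overlap. On the log2 scale it changed by -1.25 ± 0.10 with AKTi (adjusted p = 1.63e-12), -1.88 ± 0.11 with EZH2i (8.55e-18) and -4.43 ± 0.14 with both (3.04e-26). BLM, the Bloom syndrome helicase, changed by -1.11 with AKTi, -1.10 with EZH2i and -3.37 with both. RBBP8, which starts resection, changed by -0.87, -1.16 and -1.37, and its combination and EZH2i levels differed by -0.21 ± 0.11 (adjusted p = 0.124).

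Of the break-sensing complex, the nuclease MRE11, which is not a member, changed by -0.33 with AKTi, -0.74 with EZH2i and -1.08 in the combination (adjusted p = 2.42e-14), while the members NBN and RAD50 had values nearer 0. NBN (chr8:89933336-90003228, minus strand) had a CPM of 96.8, 94.3 and 93.1 in DMSO, 94.8, 88.5 and 84.5 with AKTi, 80.1, 94.7 and 84.9 with EZH2i, and 89.3, 80.2 and 82.2 in the combination. The combination libraries were all slightly below DMSO, and AKTi and EZH2i overlapped with DMSO. The combination differed from DMSO by -0.17 ± 0.07 (adjusted p = 0.017), which became 0.023 with scaling by library totals and 0.011 with upper-quartile scaling, so no direction is given for NBN. RAD50 differed by -0.20 ± 0.19 (0.334), and it shares 76.9% of its exonic bases with an unnamed gene on the same strand.

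The mismatch repair members diverged. MSH6, a subunit of the mismatch-binding dimer, fell (chr2:47695530-47810101, plus strand). Its CPM was 68.3, 65.9 and 77.3 in DMSO, 58.1, 58.3 and 68.5 with AKTi, 29.9, 36.5 and 35.3 with EZH2i, and 31.3, 24.6 and 29.2 in the combination. DMSO and AKTi overlapped, and EZH2i and combination libraries, which also overlapped, lay below both. Against DMSO the log2 change was -0.20 ± 0.08 with AKTi (adjusted p = 0.057), -1.06 ± 0.09 with EZH2i (3.55e-13) and -1.32 ± 0.09 with both (6.2e-16). By the annotation, 24.2% of its exonic bases overlap genes on the other strand, mainly FBXO11.

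PMS2, the endonuclease subunit of mismatch repair, rose in every treated arm, the only member to do so (chr7:5973239-6009125, minus strand). Its CPM was 50.4, 49.8 and 51.2 in DMSO, 69.4, 67.7 and 66.4 with AKTi, 80.2, 83.0 and 89.5 with EZH2i, and 147, 138 and 147 in the combination. The arms did not overlap. The log2 fold change was 0.43 ± 0.06 with AKTi (adjusted p = 9.37e-07), 0.74 ± 0.06 with EZH2i (5.88e-13) and 1.51 ± 0.06 with both (1.61e-22), the last a fold change of 2.85. PMS2 has near-identical copies, between which reads can be split, and its value is uncertain for that reason. Its most abundant copies moved in opposite directions, PMS2CL from a mean CPM of 13.1 in DMSO to 20.3 in the combination (log2 fold change 0.64, adjusted p = 4.87e-06) and PMS2P1 from 18.0 to 9.73 (-0.88, 1.5e-07).

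End joining competes with recombination for broken ends. POLQ, the polymerase of the microhomology route, was lowest of the 4 members (chr3:121431427-121546641, minus strand). Its CPM was 56.5, 60.04 and 58.4 in DMSO, 26.0, 27.0 and 28.2 with AKTi, 25.5, 25.4 and 24.3 with EZH2i, and 8.67, 7.03 and 10.6 in the combination. The combination lay below the single agents, and these below DMSO. On the log2 scale it changed by -1.11 ± 0.09 with AKTi (adjusted p = 1.45e-12), -1.22 ± 0.09 with EZH2i (1.52e-14) and -2.74 ± 0.10 with both (9.05e-24). PARP1, the sensor of DNA nicks and breaks and the target of PARP inhibitors, went from 515 ± 29.0 CPM in DMSO to 419 ± 10.1 with AKTi, 324 ± 9.10 with EZH2i and 201 with both, log2 fold changes of -0.30, -0.67 and -1.35.

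LIG4, the ligase of nonhomologous end joining, moved in opposite directions with the single agents (chr13:108207439-108218368, minus strand). Its CPM was 28.7, 23.8 and 27.3 in DMSO, 20.3, 23.3 and 18.3 with AKTi, 36.1, 36.7 and 35.4 with EZH2i, and 30.6, 30.8 and 30.6 in the combination. AKTi libraries were all below DMSO, EZH2i libraries all above every other arm, and the combination between DMSO and EZH2i. Against DMSO the log2 change was -0.37 ± 0.10 with AKTi (adjusted p = 0.00184), 0.44 ± 0.09 with EZH2i (5.72e-05) and 0.21 ± 0.09 with both (0.0406). The combination call was lost with DESeq2 (0.19, adjusted p = 0.0622), and when any library but DMSO A was left out, with a value of 0.09 (0.432) without DMSO library B. XRCC4, which binds LIG4, changed by -0.57 with AKTi, -0.31 with EZH2i (adjusted p = 0.0624) and -0.63 with both.

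Whether both agents together differed from the sum of the single effects was tested with the interaction, the log2 fold change of the combination minus those of AKTi and EZH2i, each against DMSO. It was below 0 for 13 members and above 0 for 5, against 17.5% and 10.7% of all genes, and 20 members did not pass the test. The members' median was -0.23. The 13 were BRCA1, BRCA2, BARD1, XRCC2, RAD54L, FANCA, FANCD2, FANCI, BRIP1, EXO1, BLM, POLQ and PARP1, all lower in the combination than the sum. RAD54L had the lowest interaction (-1.66 ± 0.23, adjusted p = 3.94e-07), followed by BRIP1 (-1.55 ± 0.24, 3.33e-06) and BARD1 (-1.33 ± 0.08, 3.71e-16). For BARD1 the single effects summed to -0.01. FANCE, ATM and PMS2 rose beyond the sum. RBBP8 and FANCM fell by less than the sum, with interactions of 0.67 and 0.61. Leaving out a library ended 3 of these calls. The FANCA interaction was lost without DMSO B, AKTi A, AKTi B, EZH2i A or combination C, with -0.38 (adjusted p = 0.169) in the last case. The POLQ interaction was lost without DMSO A, DMSO B, AKTi B, AKTi C or combination B, with -0.28 (0.13) in the last case, and that of FANCM without AKTi C (0.0524) or EZH2i A (0.052). Members with a strong fall but no called interaction included FANCB (sum -3.16, combination -3.54) and RAD51AP1 (sum -3.14, combination -3.38). RAD54B (sum -1.59, combination -2.48) missed the interaction call at -0.88 (adjusted p = 0.0599). It passed without AKTi C (0.0426), EZH2i A (0.0389) or combination A (0.032). Calls were also gained by ATR without EZH2i A (-0.33, 0.0109) and by PALB2 without EZH2i C (0.55, 0.0413).

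**Figure D3:**
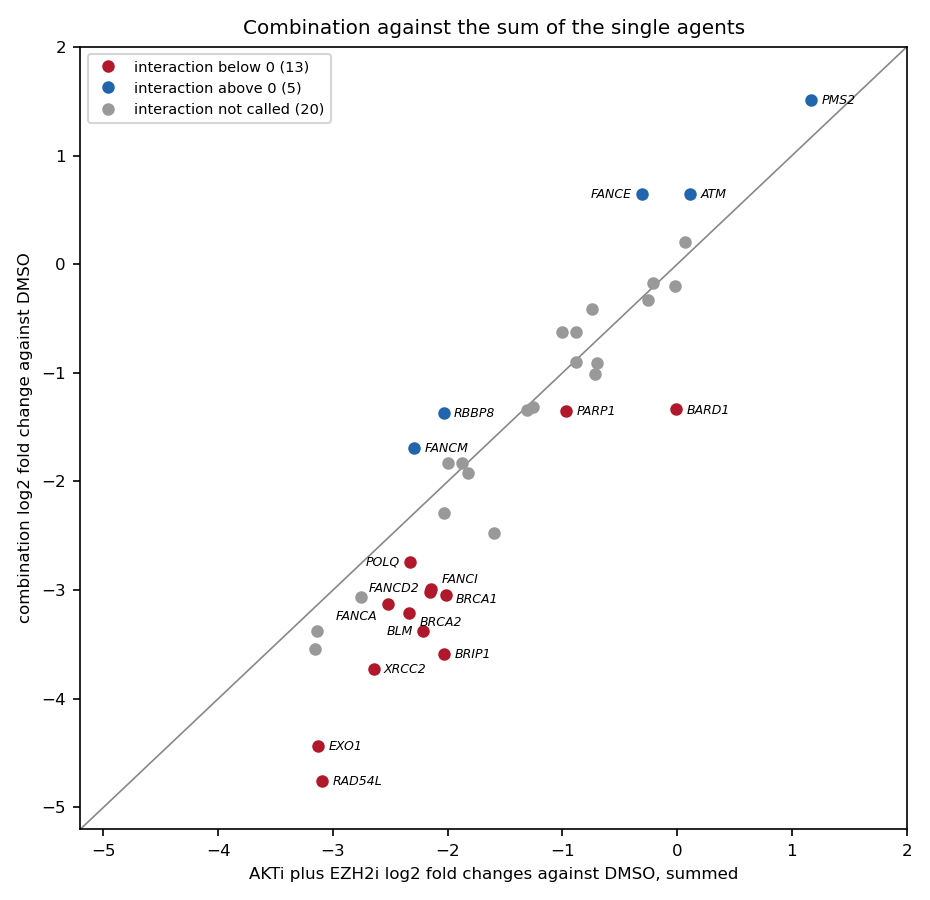
Combination log2 fold change against DMSO (y axis) against the sum of the AKTi and EZH2i log2 fold changes (x axis) for the 38 members, which share the DMSO libraries on both axes. The line marks equality, and colours mark the interaction call, with 13 members called below the line and 5 above it.

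Other genes of the same pathways had smaller median changes. The members and these lists were chosen with earlier results of these data known, and the difference between them was not tested. Over all genes tested, 21.9% fell and 20.6% rose with AKTi, 31.5% and 32.6% with EZH2i, and 35.2% and 38% with both. Of 54 further genes of homologous recombination and the Fanconi pathway, 33 fell and 6 rose with AKTi, 35 and 6 with EZH2i and 37 and 6 with both. Their medians were -0.35, -0.44 and -0.64. The lowest in the combination were CLSPN, an adaptor for CHEK1 (-4.87), and UBE2T, the ubiquitin-conjugating enzyme of the Fanconi pathway (-3.87), and the highest were ABRAXAS1, a BRCA1 complex subunit (1.00), and MCM9, a helicase (0.60). Of 3 other mismatch repair genes PMS1 fell (-0.77), MSH3 rose (0.42) and MLH3 did not pass the test (0.05). In the combination 5 of 7 nonhomologous end joining genes fell and 1 rose (median -0.93), as did 17 and 1 of 19 base excision repair genes (median -0.75) and 13 and 4 of 19 nucleotide excision repair genes (median -0.32). XPC, the damage sensor of nucleotide excision repair, was the highest of that list (0.91).

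Markers of cycling cells moved with the members. All 18 S phase genes fell in the combination, with a median of -3.03 and UHRF1, which maintains DNA methylation behind the replication fork, the lowest (-5.47), and all 18 G2 and M phase genes fell, with a median of -2.90. With AKTi their medians were -0.78 and -1.34, and with EZH2i -1.36 and -0.93. The interaction was below 0 for 15 of 18 S phase and 17 of 18 G2 and M phase genes, against 17.5% of all genes. By library, the median level of the 38 members relative to DMSO was -0.71 to -0.64 with AKTi, -1.14 to -0.93 with EZH2i and -1.73 to -1.69 in the combination, that of the S phase genes -0.80 to -0.74, -1.41 to -1.35 and -3.02 to -2.91, and that of all genes tested 0.05 to 0.07 in the combination. The part of a changed share of dividing cells in the fall of the members was not tested.

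**Figure D4:**
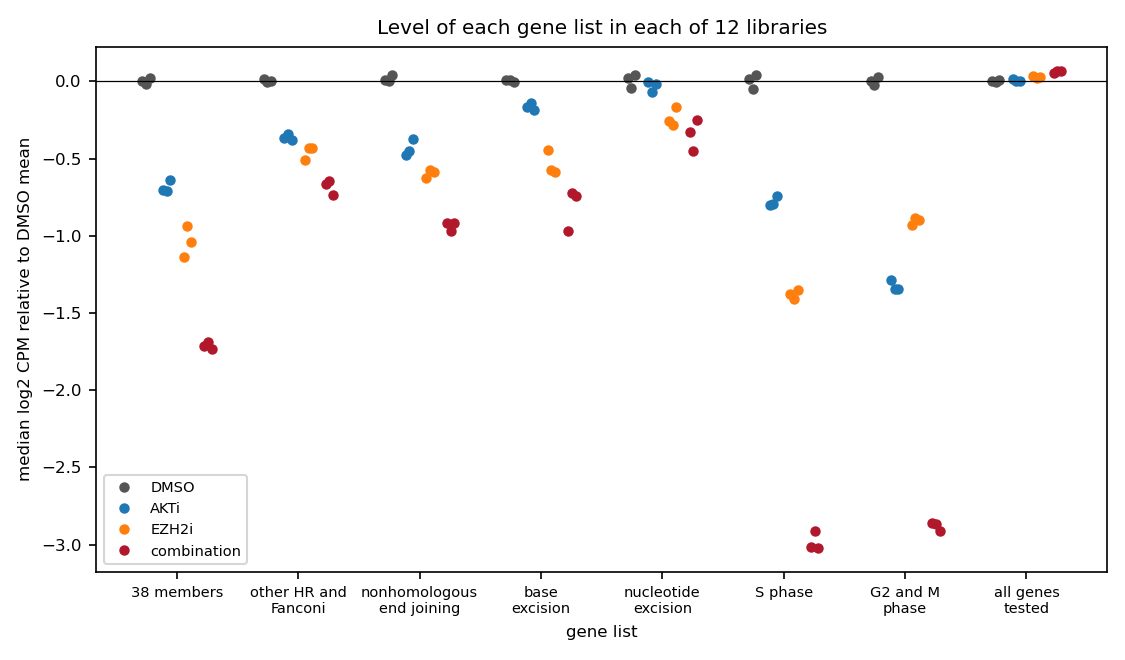
Median log2 CPM relative to the DMSO mean (y axis) of the 38 members and of 7 other gene sets (x axis), with a point for each of the 12 libraries coloured by arm. The members lie between -1.73 and -1.69 in the combination, the S phase genes between -3.02 and -2.91, and all genes tested near 0.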

How the data were processed

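The 12 polyA libraries were assigned to 4 arms of 3 by the labels. Per the labels and the paper's methods, the authors aligned reads to hg38 with STAR, counted them per gene with HTSeq and normalised with DESeq2. The deposited counts are whole numbers for 58735 genes. Versions, annotation and strand setting are not given in the sources used here, and the authors' normalised table was not used.

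Counts were tested in R 4.3.3 by edgeR 4.0.16, after its filterByExpr step at a minimum of 10 counts and 15 in total, with TMM scaling and a quasi-likelihood fit of 1 mean per arm over all 12 libraries and Benjamini-Hochberg adjustment over 16646 genes at 0.05. SE is the log2 fold change divided by the root of its F statistic. TPM used the deposited gene lengths. Libraries of an arm differed beyond sampling noise (chi-square per gene 2.57 to 7.77). Exon overlaps came from GENCODE and promoters from RefSeq (Python 3.11.15, pandas 2.3.3). RAD54B, FANCI and NBN had no promoter entry.

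The 38 genes, their roles and the other lists were chosen with earlier results of these data known. Values in every library are given for the lowest and highest member of each role in the combination and for members called in opposite directions by the single agents. Pseudogene copies were chosen after values were seen.

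The alternatives comprised each library left out in turn, a replicate block, a fit of only the 6 libraries compared, DESeq2 1.42.0, upper-quartile scaling, scaling by library size alone, a looser filter (a total of 1 count or more) and a stricter one (10 or more in every library). A change of sign counted as a reversal only where the value passed the test in either fit. The steps were tested on simulated counts in which 200 of 16646 genes changed, in the combination only. The edgeR filter kept 16087 of the 16646. Against DMSO edgeR recovered 200 with 8 false calls, and in the interaction 184 with 8. Far fewer genes changed there than in the data, so the simulation cannot judge the choice of scaling.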

Additional observations from a re-analysis of the deposited data

Results flagged for a closer look

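The effect of AKTi differed between cells without and with EZH2i for 18 members, by the interaction test of edgeR with Benjamini-Hochberg adjustment, and each value below is the log2 effect of AKTi with EZH2i minus that without it. It was below 0 for 13 of the 38 members, against 17.5% of all genes tested. In homologous recombination these were RAD54L (-1.66), BARD1 (-1.33), XRCC2 (-1.08), BRCA1 (-1.03) and BRCA2 (-0.88). In the Fanconi pathway they were BRIP1 (-1.55), FANCD2 (-0.87), FANCI (-0.85) and FANCA (-0.60). The others were EXO1 (-1.30), BLM (-1.16), POLQ (-0.41) and PARP1 (-0.39). It was above 0 for 5 of the 38, against 10.7% of all genes tested. These were FANCE (0.95), RBBP8 (0.67), FANCM (0.61), ATM (0.53) and PMS2 (0.35). Adjusted p-values ranged from 3.71e-16 for BARD1 to 0.0274 for FANCA. The calls of FANCA and POLQ were each lost when any of 5 libraries was left out, with -0.38 (adjusted p = 0.169) for FANCA without combination C and -0.28 (0.13) for POLQ without combination B, and that of FANCM without AKTi C (0.0524) or EZH2i A (0.052).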

How the results depend on the processing

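Over the 38 members, 34 kept their call against DMSO in the combination under every alternative run, 30 with AKTi and 31 with EZH2i, and 32 kept their interaction call. The exceptions in the combination were FANCF, LIG4, NBN and RAD51B. Only NBN reversed, from -0.17 to 0.023 when scaled by library size only and 0.011 by upper quartile. Under these 2 scalings, in the same order, the members' median was -0.58 and -0.58 with AKTi, -0.90 and -0.93 with EZH2i, -1.56 and -1.58 in the combination, and -0.99 and -1.00 for the combination against AKTi. With at least 10 counts in every library, which left 37 members, the median was -1.62 in the combination and -1.05 against AKTi. With at least 1 count in total it was -1.79 in the combination, and 1 member in place of 2 was called higher with AKTi. With each library left out in turn, that count ranged from 1 to 2, and the medians ranged from -0.69 to -0.64 with AKTi, -1.82 to -1.71 in the combination and -1.23 to -1.07 against AKTi. Without a library, the AKTi calls of ATR, BARD1, PALB2 and RAD54B and the calls of LIG4, MSH6 and RAD51D between the combination and EZH2i could be lost, and calls could be gained by FANCL, MSH6 and RAD51B with AKTi and by NBN, RAD51B and XRCC4 with EZH2i. Over all genes, the combination against AKTi gave 5343 lower and 5344 higher, and 4330 and 6544 with library size only.

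No pairing of the samples by replicate letter was seen in the counts. Whether plates of the same letter were handled together is not given in the sources used here. Over 18 pairs of libraries with the same letter, deviations correlated at -0.058 to 0.069, none over 0.1, and 4 of 12 libraries correlated best with their own letter. With the replicate block, the members' median in the combination was -1.76 with 33 lower and 4 higher, and the AKTi value of MSH6 passed the test (adjusted p = 0.0475), the only call of a member that changed. Members near 1 CPM in the combination, such as RAD54L, BLM, FANCB and RAD54B, rest on few counts there, with a lowest count of 8 in FANCB. Causes were not tested.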
